A study of Rattus norvegicus with 3 samples.

Results

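The calcium-calmodulin dependent kinases were described as 10 genes, taken as the rows whose gene name is Camk2a, Camk2b, Camk2d, Camk2g, Camkv, Camk1, Camk1d, Camk4, Camkk1 or Camkk2, out of 30957 genes listed. Each name stood on 1 row. The transcripts were measured by RNA sequencing of motor cortex. The donors were male Sprague-Dawley rats numbered 19, 35 and 70, all with cerebral ischemia and reperfusion, in which blood flow to the brain is cut off and then restored. Each carries the time label 8 weeks, which could be an age or a time since the operation. The 3 animals form 1 group, no sham or untreated rats were analysed here, and each number was taken as 1 animal. The values therefore show how the kinases differed between injured animals, not what the injury did.

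Calmodulin is a small protein that changes shape when it binds calcium and then switches on a set of protein kinases. CaMKII is built from alpha, beta, gamma and delta subunits, which assemble into a ring-shaped holoenzyme. The alpha and beta subunits are abundant in forebrain neurons and sit at excitatory synapses, where the kinase is needed for long-term potentiation, whereas gamma and delta are found in many tissues. In a second branch, the kinase kinases CaMKK1 and CaMKK2 phosphorylate CaMKI and CaMKIV, and CaMKK2 also phosphorylates the energy sensor AMPK. Camkv encodes a relative of these kinases on synaptic vesicles and in dendritic spines that lacks kinase activity.

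Sequence upstream of the start of transcription was at hand for 8 of the 10 genes, from RefSeq on the rat build GRCr8, which is not the build of the expression files. The 250 bases upstream are shown for Camk2a and Camkv, which varied widely between the rats, and for Camk2d, which varied little, so that the contrast in their levels can be set beside their letters. Capitals mark the GC box GGGCGG and the core of the cyclic AMP response element, TGACG, searched on both strands with overlapping matches counted separately.
Camk2a, chr18:56648930-56649179, plus strand: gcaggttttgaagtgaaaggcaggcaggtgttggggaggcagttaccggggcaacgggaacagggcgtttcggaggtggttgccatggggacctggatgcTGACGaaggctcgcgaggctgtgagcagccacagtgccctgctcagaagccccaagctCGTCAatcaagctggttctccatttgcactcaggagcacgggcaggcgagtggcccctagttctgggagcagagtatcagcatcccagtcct
Camkv, chr8:117505189-117505438, plus strand: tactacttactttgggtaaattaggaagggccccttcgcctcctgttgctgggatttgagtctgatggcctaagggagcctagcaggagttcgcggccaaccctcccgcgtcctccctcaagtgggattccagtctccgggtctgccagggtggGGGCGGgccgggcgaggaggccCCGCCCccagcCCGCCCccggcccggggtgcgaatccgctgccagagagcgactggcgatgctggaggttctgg
Camk2d, chr2:217698301-217698550, plus strand: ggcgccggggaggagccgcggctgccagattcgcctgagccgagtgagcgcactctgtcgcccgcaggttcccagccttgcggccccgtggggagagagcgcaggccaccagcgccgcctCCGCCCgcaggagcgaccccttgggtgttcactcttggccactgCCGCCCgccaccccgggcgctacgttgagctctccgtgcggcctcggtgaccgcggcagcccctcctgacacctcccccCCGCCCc

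The Camk2a window held 2 matches to the response element core and no GC box, with 60.4% G and C. The Camkv and Camk2d windows held 3 GC boxes each and no match to the core, at 66.4% and 75.2% G and C. The GC box was present in 5 of the 8 windows and in 30.5% of all 33469 promoters of that length, and the core in 3 of 8 and in 18.2%. The TATA box TATAAA was in none of the 8 and in 12.9% of all promoters. The window of Camk2b, whose transcript varied almost as much as that of Camk2a, held 5 GC boxes and 47 CpG dinucleotides, so the widely varying genes did not share one kind of upstream sequence.

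Levels are given as FPKM in the order of rats 19, 35 and 70. This unit divides the fragments of a gene by its length in kb and by the library size in units of 1000000, so levels can be compared between genes. The whole-number steps of low values put the effective depth at between 15560000 and 16460000 fragments. Rat 35 stood apart across the whole transcriptome. Its summed FPKM of the 9 neuronal markers was 62.2, against 1308 in rat 19 and 1760 in rat 70. All 9 were lowest there. Of the markers of cortical excitatory neurons, Slc17a7 was at 324, 12.2 and 383 FPKM and Tbr1 at 14.0, 0.0297 and 3.51, where the value of rat 35 rests on 1 fragment. In bulk tissue, fewer cells of a type and less RNA per cell cannot be told apart.

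The alpha and beta subunits of CaMKII, which make up most of the forebrain holoenzyme, covered the widest range of levels in the family. Camk2a (chromosome 18, 56193978 to 56295869, Rnor 6.0) was at 129, 13.4 and 459 FPKM (200.5 ± 232, SD, n = 3). Camk2b (chromosome 14, 86208901 to 86297652) was at 70.3, 7.72 and 205 FPKM (94.4 ± 101, SD, n = 3). Both were highest in rat 70, intermediate in rat 19 and lowest in rat 35, with no 2 rats near each other. These levels rested on 430 to 14336 recovered fragments for Camk2a and 575 to 14885 for Camk2b, so counting error was small beside the distance between rats. The highest rat exceeded the lowest 34.2-fold for Camk2a and 26.6-fold for Camk2b. The ratio of Camk2a to Camk2b was far steadier, at 1.83, 1.74 and 2.24, a 1.29-fold range. The transcripts of both synaptic subunits thus kept nearly the same proportion in all 3 animals while their level differed.

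Camkv, the pseudokinase of synaptic vesicles and spines, had a different pattern at its upper end. It was at 78.4, 3.63 and 84.9 FPKM (chromosome 8, 116715755 to 116730061; 55.6 ± 45.2, SD, n = 3). Rats 19 and 70 lay close together, 1.08-fold apart, and rat 35 was 21.6-fold below rat 19. The ratio of Camk2a to Camkv accordingly went from 1.64 in rat 19 to 3.70 in rat 35 and 5.41 in rat 70.

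The broad subunit genes did not share this range. Camk2d, the delta subunit that is also the main CaMKII of heart, was at 50.7, 31.0 and 28.2 FPKM (chromosome 2, 230901126 to 231132039; 36.6 ± 12.3, SD, n = 3). It was highest in rat 19 and within 1.80-fold over all 3 rats, and its log2 range of 0.83 was close to the median of 0.86 over 14134 genes with a mean of 1 FPKM or more. Camk2g, the gamma subunit, was at 0.48, 0.15 and 0.67 FPKM (chromosome 15, 3936786 to 3995915), which rested on 50, 16 and 71 fragments. The exact 95% Poisson intervals, which cover counting error only, ran from 0.36 to 0.64, from 0.084 to 0.24 and from 0.52 to 0.84 FPKM. Rat 35 was below the intervals of the others, whose own intervals overlapped. Low values in these files need care, because genes used by all cells (Hprt1, Rps6, Rpl8 and Hsp90aa1) were listed at 0 in every rat, and whether the counting of Camk2g was affected was not tested.

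**Figure D1:**
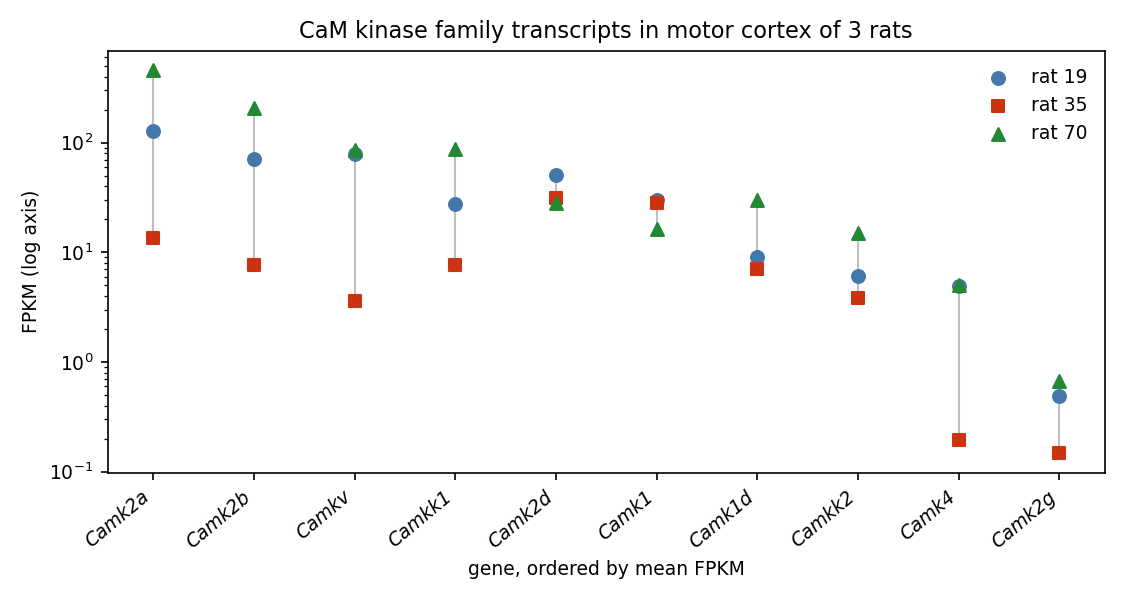
FPKM of the 10 kinase family genes on a log axis, ordered by mean, with 1 point per rat (circles rat 19, squares rat 35, triangles rat 70) and a line from the lowest to the highest rat. Camk2a spans 13.4 to 459 FPKM, while Camk2d stays between 28.2 and 50.7 and Camk2g below 1.

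Neuronal genes (Camk2a, Camk2b and Camkv) were compared with broad ones (Camk2d and Camk2g) within each rat, on log2(FPKM + 1). The mean of the neuronal genes exceeded that of the broad genes by 3.36, 0.46 and 4.85 (2.89 ± 2.23, SD, n = 3). The distance was smallest in rat 35 and largest in rat 70. The neuronal mean was 6.49, 3.06 and 7.65 and varied more than the broad mean of 3.13, 2.60 and 2.80. From rat 19 to rat 70 the neuronal mean rose while the broad mean fell, and Camk2d alone changed by -0.83. The distance also rested on the very low Camk2g, whose differences between rats are compressed on this scale. With Camk2d as the only broad gene, an alternative chosen after the values were seen, the difference was 0.80, -1.94 and 2.79 (0.55 ± 2.37, SD, n = 3), and so negative in rat 35.

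Gene by gene, the order of neuronal and broad subunits changed with the animal. Camk2a was at 2.53, 0.433 and 16.3 times the FPKM of Camk2d, and Camk2b at 1.39, 0.249 and 7.29 times. In rat 35 the delta subunit was thus the most abundant CaMKII transcript. Camkv was at 1.54, 0.117 and 3.02 times Camk2d. In the 6 pairs, the neuronal gene was above Camk2g in 3 of 3 rats and above Camk2d in 2 of 3. The mean log2 ratio was 1.39 ± 2.57 for Camk2a over Camk2d, 0.47 ± 2.35 for Camk2b over Camk2d and -0.20 ± 2.29 for Camkv over Camk2d (SD, n = 3), each smaller than its spread. An exact permutation test that flips the sign of each rat's ratio, two-sided, gave p = 0.50, 0.75 and 1.0 for these (0.75, 0.90 and 1.0 after Benjamini-Hochberg adjustment over 6 pairs). The pairs with Camk2g had mean log2 ratios of 4.48 to 6.07 and p = 0.25 (adjusted 0.50) in the exact permutation test, which is the smallest p that 3 rats allow, so no pair could pass a threshold of 0.05.

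The make-up of the CaMKII message, which does not depend on library scaling, shows the same change. Camk2a and Camk2b together made up 79.5%, 40.4% and 95.8% of the summed FPKM of the 4 subunit genes (71.9% ± 28.5, SD, n = 3). Camk2d made up 20.3%, 59.3% and 4.06%, and Camk2g at most 0.28%. The sum itself was 250.1, 52.3 and 693 FPKM. Within the neuronal portion, Camk2a took 64.6%, 63.5% and 69.1%. The change was therefore in the balance of delta against alpha plus beta, and hardly in that of alpha against beta.

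**Figure D2:**
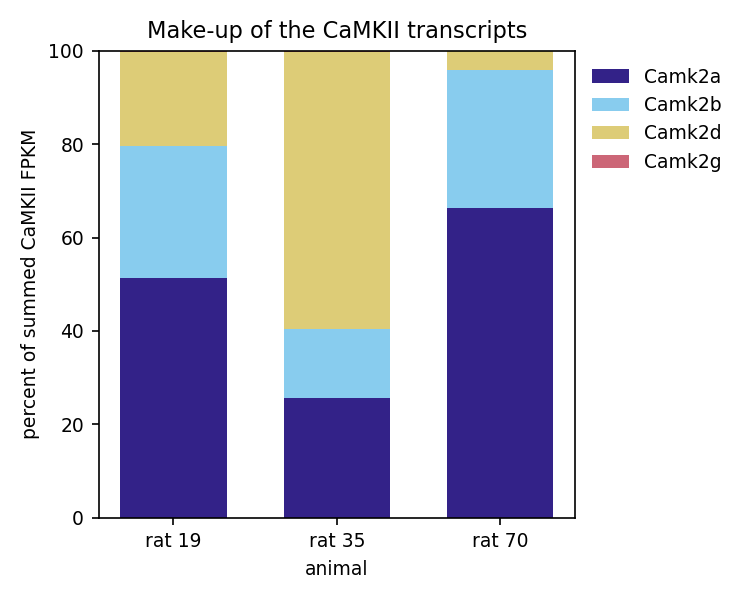
Percent of the summed FPKM of the 4 CaMKII subunit genes taken by each gene, 1 stacked bar per rat. Camk2d takes 59.3% in rat 35 and 4.06% in rat 70, and Camk2g is too small to see.

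In the kinase kinase branch, Camkk1 and Camkk2 were also highest in rat 70. Camkk1 was at 27.5, 7.62 and 87.4 FPKM (chromosome 10, 59585072 to 59608165; 40.9 ± 41.5, SD, n = 3), an 11.5-fold range. Camkk2, the activator of AMPK, was at 6.05, 3.87 and 14.9 FPKM (chromosome 12, 39253409 to 39302601; 8.28 ± 5.86, SD, n = 3), a 3.86-fold range. Rats 19 and 35 lay only 1.56-fold apart for Camkk2 but 3.61-fold for Camkk1, so that the ratio of Camkk1 to Camkk2 was 4.55, 1.97 and 5.85. Camkk1 lies wholly within the span that the files give for Itgae on the same strand. Itgae was at 1.497, 1.78 and 0.61 FPKM, in another order of rats than Camkk1.

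The targets of the kinase kinases split into 3 patterns. Camk1, a broadly expressed kinase of growing axons and dendrites, was at 30.04, 28.0 and 16.3 FPKM (chromosome 4, 145288996 to 145300177; 24.8 ± 7.40, SD, n = 3). Rats 19 and 35 were nearly alike and rat 70 was lowest over a 1.84-fold range. Its last 331 bases overlap Ogg1 on the other strand (7.80, 9.46 and 5.84 FPKM), and the counting is not stated to use strand. Camk1d was at 9.15, 6.98 and 30.1 FPKM (chromosome 17, 76532611 to 76938956; 15.4 ± 12.8, SD, n = 3), with rat 70 alone standing off. The ratio of Camk1 to Camk1d was 3.28 and 4.02 in rats 19 and 35 but 0.543 in rat 70. Camk4, a nuclear kinase that phosphorylates CREB, was at 4.94, 0.20 and 5.02 FPKM (chromosome 18, 25749098 to 25965957; 3.39 ± 2.76, SD, n = 3). Its 8 fragments in rat 35 allow 0.085 to 0.39 FPKM (exact 95% Poisson interval), far below the 4.27 to 5.70 of rat 19. The intervals of rats 19 and 70 overlapped.

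By mean FPKM the order was Camk2a, Camk2b, Camkv, Camkk1, Camk2d, Camk1, Camk1d, Camkk2, Camk4 and Camk2g. Neighbours were called apart where the upper gene was higher in all 3 rats and the mean log2 difference exceeded its SD. This held for Camk2a over Camk2b (0.92 ± 0.22), Camk2d over Camk1 (0.54 ± 0.35), Camk1d over Camkk2 (0.74 ± 0.22), Camkk2 over Camk4 (1.23 ± 0.90) and Camk4 over Camk2g (1.305 ± 1.08; SD, n = 3 for each). In rat 35, however, Camk4 and Camk2g were only 0.06 apart on log2(FPKM + 1). Their Poisson intervals there (0.085 to 0.39 and 0.084 to 0.24 FPKM) overlapped, so their order in that rat was not resolved. The order from Camk2b through Camkv and Camkk1 to Camk2d, and that of Camk1 and Camk1d, differed between rats.

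Read against all genes, the family varied widely between animals. Of its 10 genes, 9 had a mean of 1 FPKM or more, all but Camk2g. The highest and lowest rat were over 2-fold apart, on log2(FPKM + 1), for 7 of these 9, against 42.5% of 14134 genes. The log2 ranges of Camk2a (4.995), Camk2b (4.56) and Camkv (4.21) were above those of 99.8%, 99.5% and 99.2% of genes, whereas Camk2d and Camk1 (0.83 and 0.84) were above 48.6% and 49.2%. Of all 10 genes, 8 had their lowest value in rat 35 and their highest in rat 70. Among all genes 36.5% were lowest in rat 35 and 22.3% met both conditions. The other 2, Camk1 and Camk2d, were highest in rat 19 and lowest in rat 70, as were 10.6% of all genes. The count of 7 over 2-fold apart was 5 without rat 35 and 5 without rat 70, and the share of all genes was then 11.0% and 26.1%.

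The difference between rats 70 and 19 is one that the low neuronal values of rat 35 do not enter. Camk2a (3.57-fold), Camk1d (3.29-fold), Camkk1 (3.17-fold), Camk2b (2.92-fold) and Camkk2 (2.47-fold) were over 2-fold higher in rat 70, which is 5 of 10 genes, against 4.84% of all genes. The 9 neuronal markers ran from 0.547-fold (Tubb3, a neuronal tubulin) to 2.16-fold (Rbfox3, the antigen NeuN), with a median of 1.48-fold. All 5 kinase genes were above each of these markers. Camkv (1.08-fold), Camk4 (1.02-fold) and the very low Camk2g (1.38-fold) were inside the markers' range. Camk2d (0.555-fold) and Camk1 (0.544-fold) were at or just below the lower end of that range. With 1 library per rat this is a difference between 2 animals and has no replicate check.

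Markers of other neurons also differed between these animals. Among excitatory neuron markers, Neurod6 was 4.63-fold higher in rat 70, but Slc17a7, the vesicular glutamate transporter, 1.18-fold. Tbr1, a transcription factor of cortical projection neurons, was lower in rat 70 (3.51 against 14.0 FPKM). The 3 inhibitory markers were 1.26 to 1.64-fold higher in rat 70. Of 8 hippocampal markers, listed after the data were seen, 4 had a mean of 1 FPKM or more. Prox1 was at 2.33, 1.80 and 10.2 and C1ql2 at 2.17, 0.18 and 28.7 FPKM, while C1ql3 (27.9, 5.77 and 22.4) and Wfs1 (56.4, 11.5 and 34.5) were lower in rat 70 than in rat 19. Fibcd1, of the hippocampal pyramidal layer, was at 0 in every rat, but so were Hprt1, Rps6, Rpl8 and Hsp90aa1. A value of 0 here thus does not show that a transcript was absent. The summed FPKM of this list ran from 19.2 to 95.8, and its part in the kinase values was not tested.

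In rat 35, the kinases did not all lie as far below rat 19 as the neuronal markers did. The 9 neuronal markers were 8.03 to 40.9-fold higher in rat 19 than in rat 35, with a median of 22.1-fold. Camk4 (25.3-fold, with 8 fragments in rat 35) and Camkv (21.6-fold) were near this median. Camk2a (9.57-fold) and Camk2b (9.10-fold) had smaller ratios than 8 of the 9 markers, all but Map2. Camkk1 (3.61-fold), Camk2d (1.64-fold), Camkk2 (1.56-fold), Camk1d (1.31-fold) and Camk1 (1.07-fold) were below every marker. So was the very low Camk2g (3.31-fold, with 16 fragments in rat 35). Microglial markers ran the other way, with all 5 highest in rat 35 (summed FPKM of 244, 679 and 148), as were all 4 phagocyte markers (608, 8337 and 766) and the 4 of 5 fibroblast markers above 0 (232, 2612 and 211). Astrocyte markers summed to 2311, 806 and 1082, of which Gfap alone made up 1878, 564 and 688. The others did not share 1 pattern. Slc1a2 (43.1, 30.1 and 120) and Slc1a3 were highest in rat 70, Aqp4 (113, 54.6 and 16.9) and Aldh1l1 were lowest there, and Gja1 was lowest in rat 35. The part of these cell types in the levels of Camk1, Camk1d, Camk2d and Camkk2 was not tested.

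**Figure D3:**
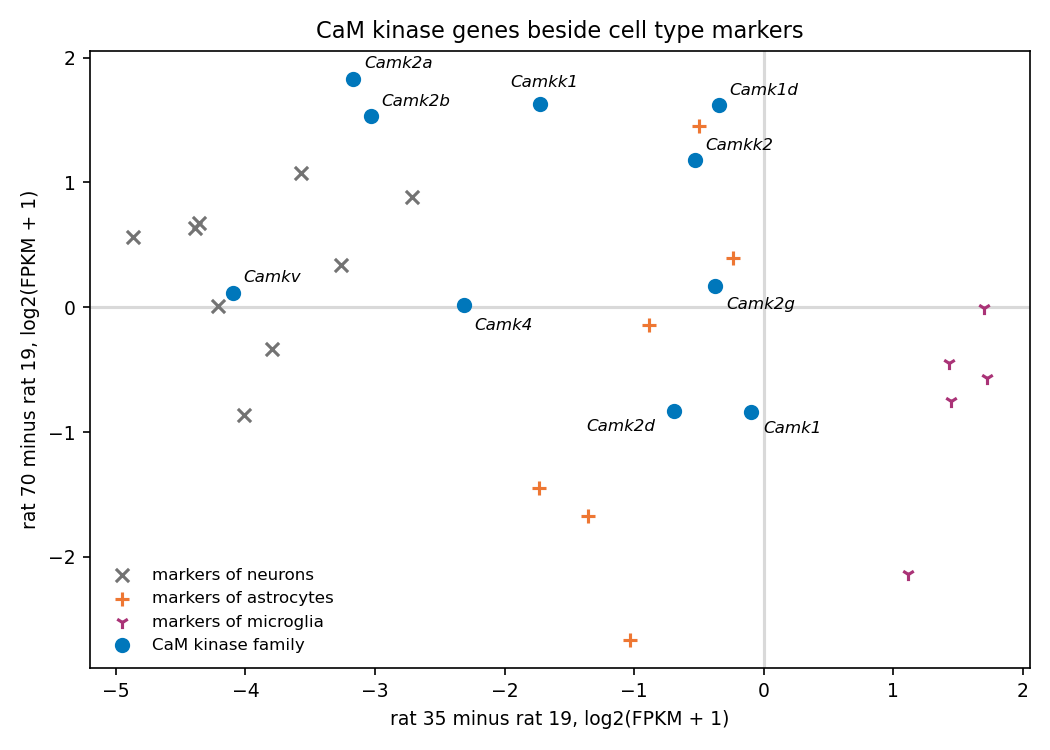
Difference of log2(FPKM + 1) between rats 35 and 19 (horizontal) and between rats 70 and 19 (vertical), with 1 point per gene, for the 10 kinase genes and for markers of neurons, astrocytes and microglia. Camkv lies among the neuronal markers, Camk2a and Camk2b lie above them, and Camk1 and Camk2d lie at -0.10 and -0.69 on the horizontal axis and at -0.84 and -0.83 on the vertical one.

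Calmodulin itself, the calcium sensor shared by all these kinases, differed less than the neuronal kinases. Calm2 was at 237, 99.5 and 280 FPKM and Calm3 at 462, 174 and 614. Both had the order of Camk2a, with ranges of 2.81 and 3.53-fold, and Calm3 exceeded Camk2a in every rat. The calmodulin genes have near-identical copies, and the row named Calm2 spans 1095 bp, the same as its recovered length, so its values are uncertain. The calmodulin-binding proteins that hold calmodulin in neurons had a wider range. Nrgn (neurogranin) was at 283, 19.2 and 263 FPKM, Pcp4 at 131, 9.13 and 360 and Gap43 at 189, 14.7 and 101. All 3 were lowest in rat 35, but only Pcp4 was highest in rat 70.

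The endogenous CaMKII inhibitor proteins bind the active kinase. Camk2n1 was at 294, 24.1 and 167 FPKM and Camk2n2 at 20.8, 2.89 and 35.0. Both were lowest in rat 35 and they differed in which of the other rats was highest. The level of Camk2n1 was 2.29, 1.79 and 0.364 times that of Camk2a. Camk2a thus exceeded Camk2n1 in rat 70 alone, whereas Camk2a (129, 13.4 and 459 FPKM) exceeded Camk2n2 in every rat. The summed FPKM of the CaMKII subunit genes (250.1, 52.3 and 693) was above Camk2n1 in rats 35 and 70 and below it in rat 19.

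The next list holds phosphatases and phosphatase regulators. Ppm1e, which dephosphorylates CaM kinases, was at 18.3, 6.56 and 84.5 FPKM. The 4.62-fold excess of Ppm1e in rat 70 over rat 19 was larger than that of any of the 10 family genes. Its relative Ppm1f was at 26.2, 22.7 and 17.5. Ppp1r9b (spinophilin), the most abundant of this list, was at 128, 61.0 and 195 FPKM, and the catalytic subunit Ppp1cc varied least (76.5, 105 and 101). Of the 7 genes of this list, 3 were over 2-fold apart (Ppm1e and the regulators Ppp1r9b and Ppp1r1a), a share like that of all genes. Of the phosphatases themselves, only Ppm1e was over 2-fold apart. Of the 6 calcineurin genes, 4 were over 2-fold apart and lowest in rat 35, against 42.5% and 36.5% of all genes. The catalytic subunits Ppp3cb (110.6, 37.1 and 163) and Ppp3ca (87.7, 29.6 and 181) followed the order of Camk2a, while Ppp3cc (10.3, 16.6 and 11.4) and the inhibitor Rcan1 (29.95, 44.9 and 27.1) were highest in rat 35.

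The synaptic partners and substrates of CaMKII followed the neuronal subunits. All 10 were lowest in rat 35 and over 2-fold apart (36.5% and 42.5% of all genes), and 8 were highest in rat 70 (29.8% of all genes). Syn1, a vesicle protein phosphorylated by CaMKII, had the widest log2 range (155.6, 5.05 and 144 FPKM), and Grin2b, the NMDA receptor subunit that binds the kinase, the smallest (0.95, 0.18 and 1.95). Gria1, the AMPA receptor subunit that CaMKII phosphorylates, was at 19.1, 3.00 and 55.7. On log2(FPKM + 1), Gria1, Grin2a, Shank3 and Kalrn were over 2-fold higher in rat 70 than in rat 19, against 4.84% of all genes. As ratios of FPKM they were 2.92, 13.6, 3.07 and 2.20-fold higher, and the low Grin2b was 2.05-fold higher. Syn1 and Actn2 were not higher (0.923-fold and 0.933-fold).

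Other kinases of the same branch did not share 1 pattern. Pnck, a CaMKI relative, was at 41.6, 0.79 and 14.8 FPKM and Camk1g at 5.30, 0.97 and 7.58. Dclk1, a doublecortin-like kinase, was the most abundant of these 9 on average (49.0, 18.6 and 38.4). Dapk2 (1.20, 2.16 and 1.32), Mylk (4.82, 9.88 and 5.87) and Eef2k (13.8, 34.0 and 17.7) were highest in rat 35. In all, 4 of 9 were over 2-fold apart and 4 were lowest in rat 35, shares near those of all genes.

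Downstream of the cascades, the median log2 range was 1.05 for AMPK subunits and 0.81 for nuclear targets, against 0.86 for all genes. Of the 6 AMPK genes, 4 were over 2-fold apart, against 42.5% of all genes. The catalytic subunit Prkaa2 was at 1.31, 0.39 and 6.18 FPKM, whereas Prkaa1 was at 14.0, 16.8 and 11.6. The regulatory subunits Prkag2 (28.4, 13.6 and 29.1) and Prkag1 (14.4, 14.6 and 12.8) were the most abundant and the least variable of the list. Among 10 nuclear targets, 4 were over 2-fold apart (Crtc1, Mef2a, Mef2c and Hdac9) and 2 were lowest in rat 35. Hdac5, a histone deacetylase that leaves the nucleus when CaM kinases phosphorylate it and the most abundant of them, was at 33.5, 31.3 and 46.4 FPKM, and the coactivator Crebbp varied least (7.45, 7.56 and 7.34). Creb1, phosphorylated by CaMKIV, was at 4.28, 8.14 and 6.34 and did not follow Camk4. Over all 9 lists, 37 of 56 genes were over 2-fold apart, against 42.5% of all genes. Rat 35 was lowest for 35 of them (36.5% of all genes) and rat 70 highest for 33 (29.8%).

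**Figure D4:**
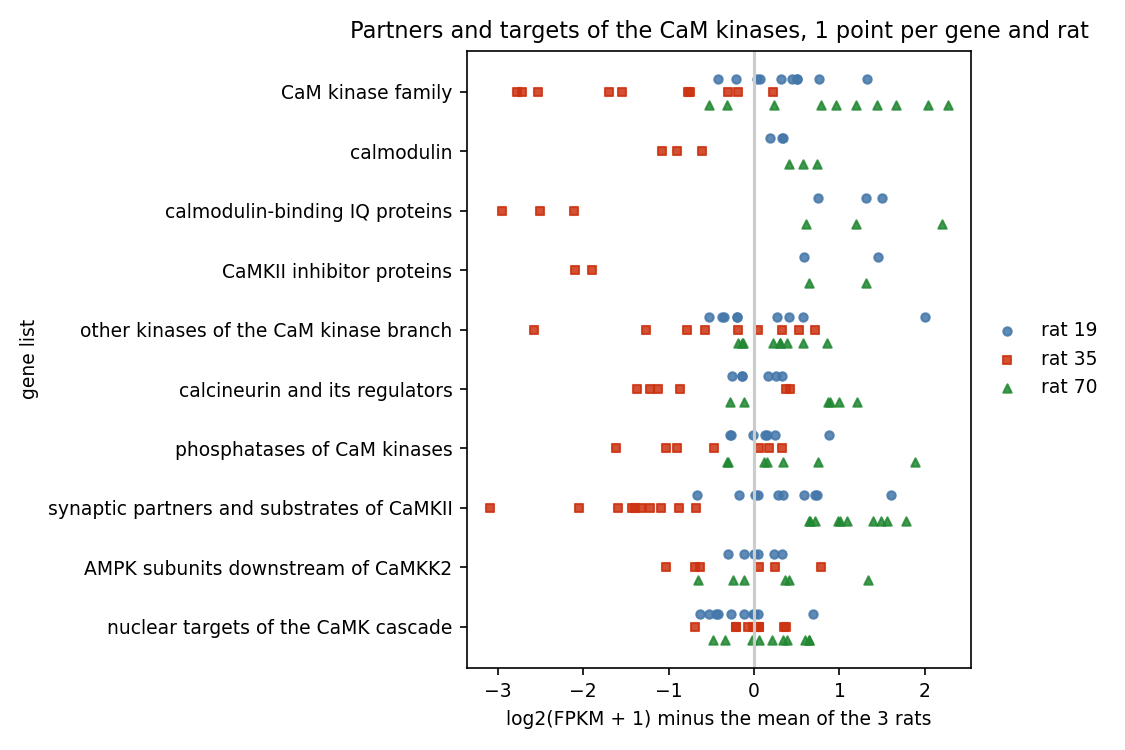
Deviation of log2(FPKM + 1) from the mean of the 3 rats, with 1 point per gene and rat, for the kinase family and 9 lists of partners and targets. Rat 35 lies left of 0 for every gene of the calmodulin, calmodulin-binding, inhibitor and synaptic lists and on both sides of 0 for the other lists.

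The genes most like a kinase in pattern were taken as the 5 with the smallest distance between their deviations over the 3 rats, among 10480 genes with a mean of 5 FPKM or more. For Camk2a these included Cplx1, a complexin of vesicle release (74.0, 6.25 and 270 FPKM, distance 0.18 in log2 units), Pcsk2, a prohormone convertase (24.3, 1.72 and 72.8), Ncdn, the neuronal protein neurochondrin (218, 27.4 and 702), and a clone-named gene. For Camk2d they were Samd4b, Slc7a5, Rgs12, Luc7l3 and a clone-named gene, at distances of 0.033 to 0.054. For Camkk2 they were Lurap1l, Sc5d, Mgat3, Gprc5b and Plekhg5, at 0.026 to 0.093. Over 3 rats such closeness is a description of these libraries.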

How the data were processed

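The authors deposited 1 table of FPKM per rat. Per the series' design text in the labels, fragments were counted per gene, normalized and converted to FPKM by a Perl script; the submitters' processing notes give HISAT2 2.0.4, StringTie 1.3.0 and Rnor 6.0, with no roles. FPKM was used as deposited, since no counts were used here.

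Analyses (Python 3.11.15, numpy 2.4.6, pandas 2.3.3, scipy 1.17.1) used log2(FPKM + 1), a scale that compresses low values, and a minimum mean of 1 FPKM for all-gene shares. Fragments and gene lengths were recovered as the shortest length up to 20000 bp giving whole fragments in all rats within 0.005, which succeeded for 99.9% of 14071 genes and for 1.70% after random changes of the values. The recovery and the spread counts were tested on simulated data. For gene pairs, an exact permutation test flipped the sign of each rat's log2 ratio (two-sided). All members were named, and of each list the most abundant and the most and least variable genes, with others chosen after their values were seen; some genes that this rule takes are left unreported. The members, lists and tests were chosen with earlier results of these data known. Replicates are rats, so p-values cover the spread between them. Alternatives were scaling, a pseudocount of 0.1, other minima and leaving out each rat.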

Additional observations from a re-analysis of the deposited data

How the results depend on the processing

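The neuronal minus broad difference of 2.89 kept its sign under both other scalings and a pseudocount of 0.1, ran from 1.91 to 4.11 when 1 rat was left out, and was 0.55 with Camk2d as the only broad gene, because the very low Camk2g then no longer enters. The neuronal share of CaMKII (71.9%) ran from 59.97% to 87.7% with 1 rat left out. With 1 rat left out, the mean log2 ratio of Camk2b over Camk2d (0.47) ran from -0.71 (without rat 70) to 1.64 (without rat 35), and that of Camkv over Camk2d (-0.20) from -1.09 (without rat 70) to 1.09 (without rat 35). The count of members over 2-fold apart ran from 5 to 7 with 1 rat left out and was 8 with a pseudocount of 0.1 or none. The share of all genes was 37.0%, 11.0% and 26.1% without rats 19, 35 and 70, and 49.3% with a pseudocount of 0.1. It was not computed without a pseudocount. Members lowest in rat 35 numbered 8, or 9 by median-of-ratios scaling, which places Camk2d lowest there too. With rat 19 or 70 left out they numbered 8 and 10, and without rat 35 this count has no value. The share of all genes lowest in rat 35 was 36.5%, or 39.6% by median-of-ratios scaling. It rose to 44.0% without rat 19 and 47.1% without rat 70, as only 2 rats are then compared. Rescaling to a common sum raised the median gene by 0.80, 0.85 and 0.96 (log2) in rats 19, 35 and 70. No paired analysis was possible because there is 1 group. The 8 and 16 fragments of Camk4 and Camk2g in rat 35 limit their folds.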
